A study of Mus musculus with 16 samples.

Results

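Heme is built from glycine and succinyl-CoA by a chain of enzymes that begins and ends in the mitochondrion. 8 genes of that chain were followed here, chosen by symbol among the 32286 features of the bone marrow (BM) count matrices, and each had 1 row in every matrix. Alas1 encodes the 5-aminolevulinate synthase that nearly every tissue uses for the first and rate-limiting step, and Alas2 encodes the isoenzyme that red cell precursors use for hemoglobin. Alad makes the first pyrrole, Uros and Urod close and trim the porphyrin ring, Cpox and Ppox oxidize it, and Fech, ferrochelatase, inserts the iron. In marrow, heme goes mainly to hemoglobin in erythroid cells, whereas granulocyte precursors need it for myeloperoxidase and other granule and oxidase proteins.

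The 12 libraries were single-cell RNA-seq of BM from female BALB/c mice, with 2 libraries per group in each of 2 sorts. One sort took CD45+Ter119- cells, and the other took lineage-negative c-Kit+CD45+ cells (hereafter c-Kit+). WT libraries, labelled ctrl, came from mice that had no tumor and were not dosed. Vehicle and IACS-70654 libraries both came from mice carrying the 2208L tumor, a transplanted Trp53-null mammary line, so the tumor and the dosing were shared by these groups and absent from WT. IACS-70654 inhibits the bromodomains of the histone acetyltransferases CBP and P300, and it was given by mouth on an intermittent schedule for about a week. Each library was made from a pool of 3 mice per the study's methods. Whether the 2 libraries of a group came from separate pools was not stated outright, so the p-values below measure the spread between these libraries, which may be technical. Ter119 marks maturing red cells, red cells were also lysed, and the lineage cocktail held Ter119, so that the erythroid cells measured here were early ones. Quality filters kept 31191 CD45+ and 28155 c-Kit+ cells, with a median of 4113 to 6597 UMIs (unique molecular identifiers, each marking 1 captured transcript) per cell in the CD45+ libraries and 6712 to 9512 in the c-Kit+ libraries. No cell barcode was shared between libraries of a sort.

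Cell classes were named from fixed marker lists, and the 8 genes had no part in the clustering. The erythroid progenitor–like class (hereafter erythroid progenitors) of the c-Kit+ sort held 3752 cells in 4 clusters, and all 12 of its markers were detected in all 6 libraries, among them Klf1 at 165 to 182 CPM (the gene's share of a class's summed UMIs, scaled to 1e+06) and Gata1 at 80.1 to 95.9 CPM. The neutrophil-committed progenitor–like class (hereafter neutrophil-committed progenitors) held 5687 c-Kit+ cells and 1624 CD45+ cells. 7300 c-Kit+ and 1498 CD45+ cells were left unnamed.

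The sequence before the transcription start was read for the members from RefSeq promoters of build GRCm38.p6, the assembly of mm10, in which 7 of the 8 genes had 10 windows of 250 bases. It is shown for the 2 first enzymes, Alas1 and Alas2, which differed in opposite directions between erythroid and neutrophil-committed progenitors. It is also shown for Cpox, which was lower after IACS-70654 in every erythroid cluster. Capitals mark matches, on either strand, to GATA-type motifs (AGATAA or TGATAA, bound by GATA1 and its relatives) or to GCATGC, the core of the NRF1 motif. AGATAA occurred in 9.99% and TGATAA in 7.94% of the 32851 promoter windows of this length, either one in 16.6%, and GCATGC in 6.7%. Of the 10 windows, AGATAA was found in that of Alas2 alone and TGATAA in that of Cpox and in 1 of the 2 of Uros, and 1 of the 2 Alas1 windows held GCATGC. In this build Alas1 spans chr9:106233455-106248654 on the minus strand, Alas2 chrX:150547375-150570638 on the plus strand and Cpox chr16:58670292-58717636 on the plus strand. Each sequence is given 5′ to 3′. The Alas2 stretch lies on the plus strand of the X chromosome at chrX:150547167-150547374 and stops at the first annotated exon. The Cpox stretch lies on the plus strand at chr16:58669958-58670207, upstream of the gene. For Alas1, 30 bases on the minus strand at chr9:106247906-106247935 are shown, which lie before 1 RefSeq start and inside an exon of longer annotated transcripts.
Alas2: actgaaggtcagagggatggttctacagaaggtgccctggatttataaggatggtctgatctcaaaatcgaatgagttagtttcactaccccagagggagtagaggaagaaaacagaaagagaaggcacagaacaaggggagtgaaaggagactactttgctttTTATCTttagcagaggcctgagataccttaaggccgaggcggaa
Cpox: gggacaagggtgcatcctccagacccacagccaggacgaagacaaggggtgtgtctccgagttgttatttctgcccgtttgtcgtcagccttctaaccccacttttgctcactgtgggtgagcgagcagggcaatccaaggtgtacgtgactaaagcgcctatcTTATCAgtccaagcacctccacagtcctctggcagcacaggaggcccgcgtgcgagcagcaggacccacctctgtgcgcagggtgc
Alas1: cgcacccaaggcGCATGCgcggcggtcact
A match describes these letters and does not show that a factor bound there. The CACCC box (CCACCC on either strand), the motif of KLF1 and related factors, was matched in 28.1% of all windows. It was found in the Alas2 window, past the stretch shown, and in the other Alas1 window.

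Alas1 was a granulocyte precursor transcript in this marrow. In c-Kit+ neutrophil-committed progenitors it measured 663 and 619 CPM in the WT libraries, 654 and 655 for the vehicle libraries, and 802 and 813 under IACS-70654. In erythroid progenitors of the same libraries it measured 22.5 and 25.1 CPM for WT, 23.5 and 29.2 for the vehicle libraries, and 22.8 and 23.4 under IACS-70654. The ranges did not come near each other. The mean difference within a library, erythroid minus neutrophil-committed, was -4.78 ± 0.25 on the log2(CPM + 1) scale (SD, n = 6 libraries), a 27.6-fold lower level, and its sign was the same in 6 of 6 libraries (2-sided exact sign-flip permutation test, p = 0.03125, the smallest that 6 libraries can give, and 0.03125 after Benjamini-Hochberg adjustment over the 8 genes).

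The Alas1 level in erythroid progenitors was of the same order, relative to neutrophil-committed progenitors, as that of neutrophil markers. It was 2.85% to 4.46% of the level in neutrophil-committed progenitors, and the 8 neutrophil markers stood at 0.616% to 4.35% of theirs, with Elane (neutrophil elastase) at 1.55% to 1.97% and Mpo (myeloperoxidase) at 2.96% to 3.96%. How much of the erythroid Alas1 signal was free RNA was not tested. After each cell was thinned to 3000 UMIs, 74.7% to 79.8% of neutrophil-committed progenitors had an Alas1 UMI, against 5.13% to 9.28% of erythroid progenitors. Without thinning the shares were 90.9% to 95.7% and 24.4% to 28.1%, at median depths of 10423 to 11285 and 12433 to 13745 UMIs per cell.

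Alas1 followed the granulocyte and monocyte lines rather than the whole progenitor pool. Monocyte progenitors ranked next among the 9 c-Kit+ classes with at least 20 cells in every library, with a lowest, median and highest library of 217, 229 and 274 CPM, below every neutrophil-committed value and above every value of the classes that followed. The remaining classes, from lymphoid-primed cells at 63.6 to 103 CPM down to multipotent progenitors at 25.8 to 50.1, overlapped from 1 rank to the next, and erythroid progenitors were last. Eosinophil-like cells, too few for that ranking, gave 145 to 477 CPM. Neutrophil-committed progenitors were 10.2% to 27.3% of the c-Kit+ cells kept and held 53.3% to 78.5% of their Alas1 UMIs. Erythroid progenitors, 9.91% to 21.4% of the cells, held 1.23% to 5.8%.

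The genes whose profile over 10 c-Kit+ classes was most like that of Alas1, among 5085 genes reaching 50 CPM in a class, were Sgms2 (a sphingomyelin synthase), Elane, Afap1 (an actin filament–associated protein), Ms4a3 (a granulocyte-monocyte progenitor membrane protein) and Igsf6. Their Pearson r of log2(CPM + 1), averaged over the 6 libraries, was 0.971, 0.968, 0.964, 0.96 and 0.957. Elane and Ms4a3 were themselves markers of the neutrophil class, and the classes shared libraries, so these values are descriptive.

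In the CD45+ sort the level of Alas1 was lower at each step of neutrophil maturation. It was 516 to 918 CPM (median 606) in neutrophil-committed progenitors, 157 to 332 (median 180) in cycling precursors, 68.1 to 110 (median 74.2) in immature neutrophils and 34.4 to 54.9 (median 48.8) in mature neutrophils, with no overlap between neighbouring steps. Monocytes gave 59.4 to 91.3 CPM and plasmacytoid dendritic cells 31.3 to 55.8. The later enzymes did not share one course. Alad was at 21.5–28.3 CPM in neutrophil-committed progenitors, 1.59–6.01 in cycling precursors and 0.509–1.84 in mature neutrophils, and Cpox was at 11.5–23.1, 2.66–3.77 and 0.263–1.78. Ppox went from 6.15–9.13 CPM to 10.9–15.0 in cycling precursors, 7.83–12.7 in immature and 13.1–16.6 in mature neutrophils. Urod had a median of 20.1 CPM in the first class and 9.54 in the last. These levels were compared along the series by their ranges, without a test.

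**Figure D1:**
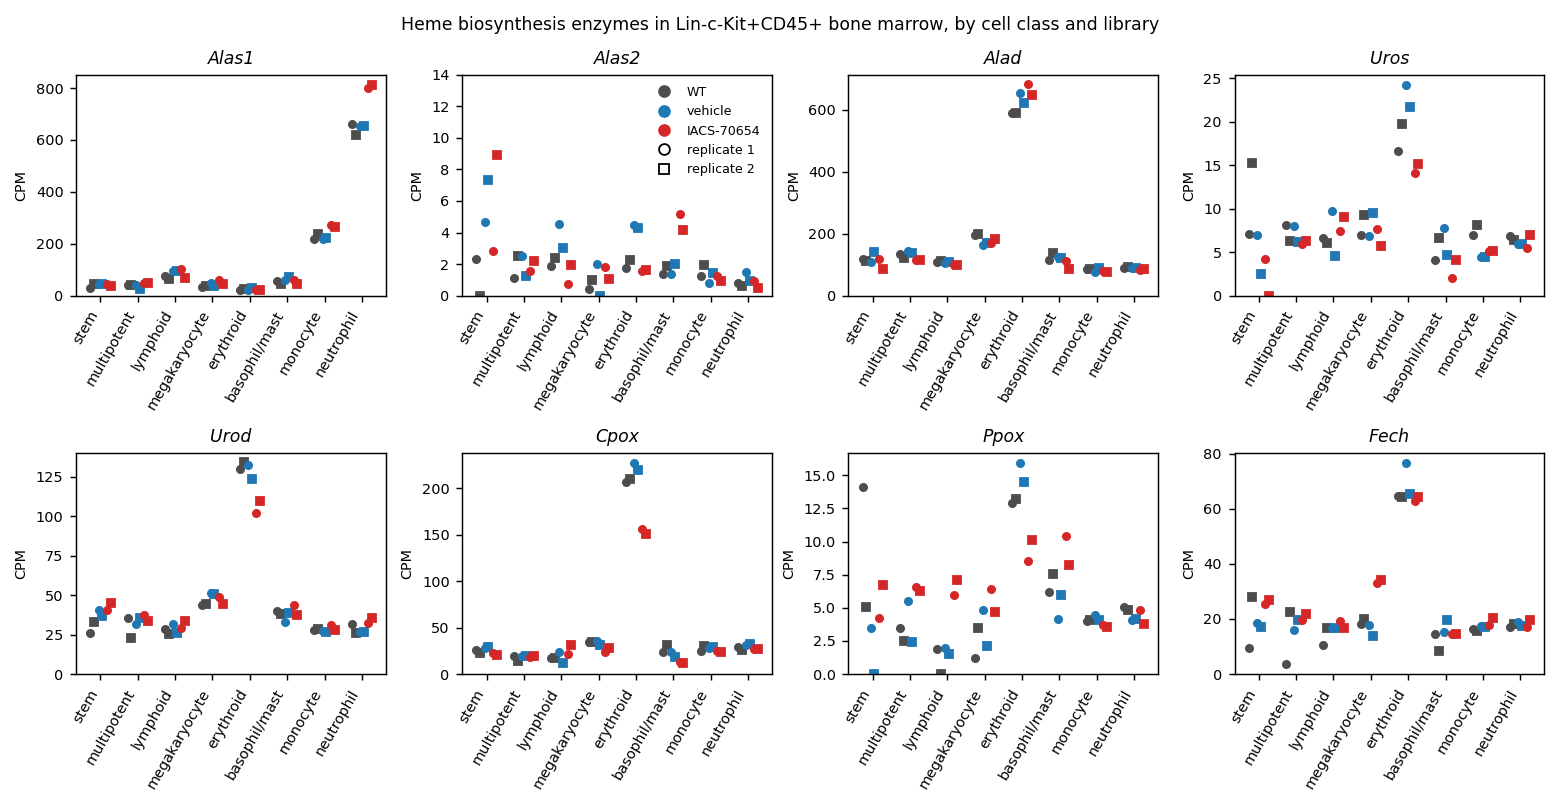
Each panel plots 1 heme enzyme gene in c-Kit+ marrow: the y axis is CPM of summed UMIs and the x axis the cell class, with 1 point per library, colored by group and shaped by replicate. Alas1 peaks in the neutrophil class at 619 to 813 CPM, Alad and Cpox peak in the erythroid class at 589 to 683 and 150.4 to 227 CPM, and Alas2 does not exceed 8.93 CPM in any class shown.

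Alas2 was barely detected. Over all erythroid progenitors 125 Alas2 UMIs were counted in 3752 cells, and the level was 1.75 and 2.26 CPM for WT, 4.49 and 4.29 for the vehicle libraries, and 1.56 and 1.62 under IACS-70654. Neutrophil-committed progenitors gave 64 UMIs in 5687 cells and 0.512 to 1.51 CPM. The difference was 0.91 ± 0.38 on the log2 scale (SD, n = 6 libraries), higher in erythroid progenitors in 6 of 6 libraries, with the same exact permutation p of 0.03125. Thinned to equal depth, 0.464% to 1.37% of erythroid progenitors and 0.118% to 0.466% of neutrophil-committed progenitors had an Alas2 UMI (1.86% to 4.98% and 0.581% to 1.56% before thinning). Since neutrophil precursors should lack Alas2, that share is the nearest measure of background, and its highest library met the lowest erythroid library. By median level, erythroid progenitors were at rank 3 of the 9 ranked c-Kit+ classes, at 2.0 CPM. Stem cell–like cells (3.74 CPM) and lymphoid-primed cells (2.17 CPM) ranked above them. Stem cell–like cells reached 8.93 CPM in 1 library from 14 UMIs in all 6, and every neighbour in the order of Alas2 levels over the classes overlapped. The genes nearest to Alas2 in profile were Prpf6 (a splicing factor), Naa35, Ctsl (cathepsin L), Klf10 and Cir1, at r of 0.936, 0.935, 0.902, 0.898 and 0.894, which rests on the same few UMIs.

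Most Alas2 UMIs of the erythroid class lay in its globin-rich cells. Of the 125 UMIs, 91 came from cluster 12, 1017 cells with Hbb-bs, Hba-a1 and the red cell membrane gene Rhd among their leading genes. Clusters 11, 16 and 14, each with Car1 among the leading genes, gave 18, 14 and 2. In cluster 12 the level was 3.85 and 5.68 CPM for WT, 10.6 and 13.9 for the vehicle libraries, and 3.35 and 3.81 under IACS-70654, above every library of the other 3 clusters. Alas1 measured 19.1 to 26.8 CPM in cluster 12 and 17.7 to 36.8 in the others.

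The 6 later enzymes differed between the classes in the direction of Alas2, opposite to Alas1. All 6 were higher in erythroid than in neutrophil-committed progenitors in 6 of 6 libraries, each with an exact permutation p of 0.03125. This test, like those of Alas1 and Alas2, was run on the heme enzyme genes only. Any gene with the same sign in 6 of 6 libraries gets this p, whatever the size of its difference. The share of all genes that differed between these classes with the same sign in every library was not measured, so the p-values do not set these enzymes apart from other genes. Alad, which condenses 5-aminolevulinate, was furthest apart at 589 to 683 against 83.9 to 93.2 CPM (2.82 ± 0.13 on the log2 scale, SD, n = 6). Cpox, coproporphyrinogen oxidase, came next at 150.4 to 227 against 26.1 to 32.1 CPM (2.71 ± 0.19). The log2 differences were 2.0 ± 0.31 for Urod, 1.82 ± 0.11 for Fech, 1.41 ± 0.34 for Uros and 1.29 ± 0.36 for Ppox. For Alad, Urod, Cpox and Fech the erythroid range lay above that of each other ranked c-Kit+ class. For Uros it overlapped with stem cell–like cells (0.0 to 15.3 CPM), and for Ppox with those (0.0 to 14.1 CPM) and with basophil or mast cell–like cells (4.19 to 10.4 CPM). Megakaryocyte progenitors ranked next for Alad at 162 to 198 CPM, for Urod at 43.5 to 51.0 and for Cpox at 23.7 to 35.7. Erythroid progenitors held 48.1% to 67.3% of the Alad and 53.5% to 75.5% of the Cpox UMIs of the sort.

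Within the erythroid class, Alad and Fech were highest in the globin-rich cells, with no overlap with the other clusters, as a description without a test. Alad was at 399–480 CPM in cluster 11, 443–529 in cluster 16, 626–729 in cluster 14 and 801–1020 in cluster 12. Fech was at 27.2–56.7 CPM in cluster 11 and 80.7–132 in cluster 12, and Uros at 9.73–13.2 and 18.6–48.6. Urod was already high in cluster 14, at 116 to 172 CPM, with 115 to 179 in cluster 12. Ppox ran from 3.84–8.76 CPM in cluster 11 to 11.6–28.4 in cluster 12.

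**Figure D2:**
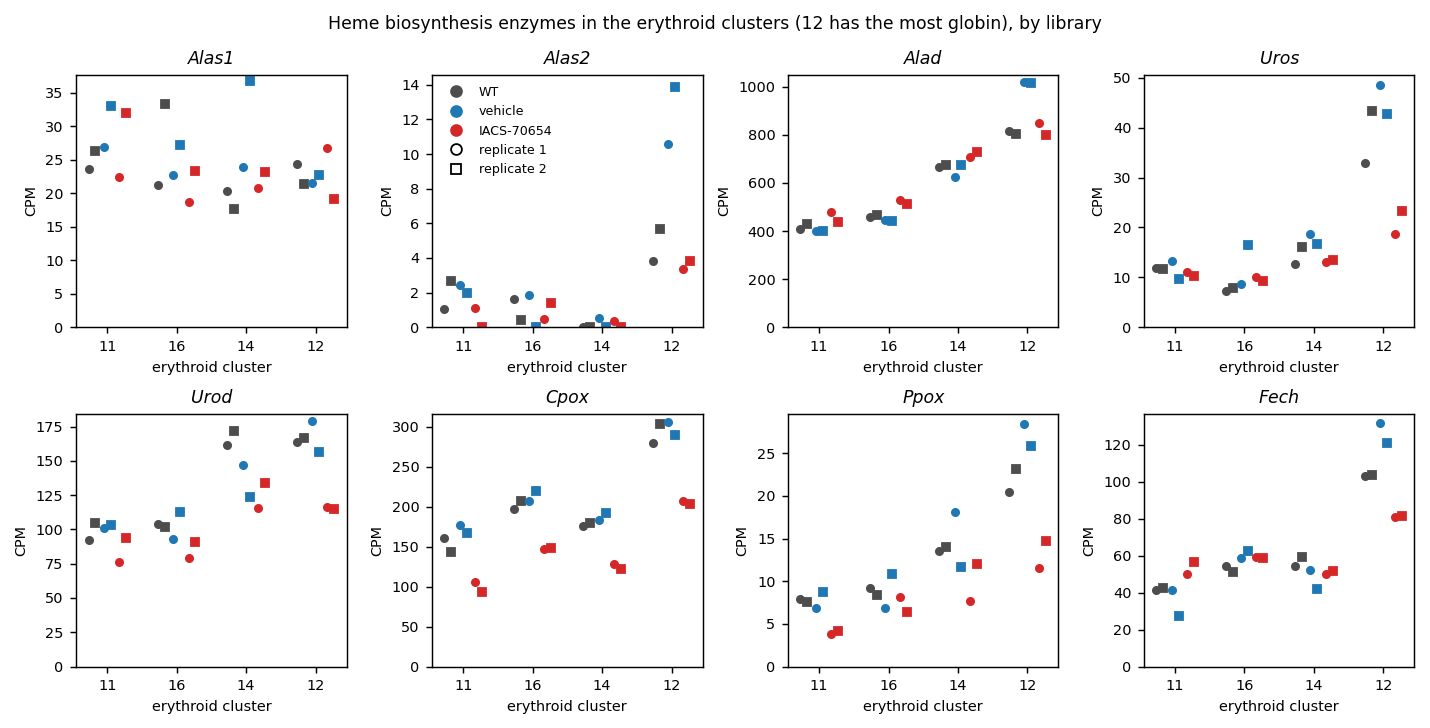
Each panel plots 1 heme enzyme gene in the 4 erythroid clusters of the c-Kit+ sort, with CPM on the y axis and 1 point per library, colored by group and shaped by replicate. In cluster 12, where globin RNA was highest, the IACS-70654 points lie below the vehicle points for Alas2, Alad, Uros, Urod, Cpox, Ppox and Fech, while Alas1 overlaps at 19.1 to 26.8 CPM. Cluster 12 was singled out after the values had been seen. The share of all genes that separated in this way was not measured, so the separation is not read as a result about these genes.

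Between vehicle and WT none of these genes was called. These groups differ by the tumor and by dosing with vehicle, which cannot be told apart. A gene was called where its adjusted p was under 0.01 and its log2 change over 0.5 in size, in edgeR's quasi-likelihood test on UMIs summed per library and class with Benjamini-Hochberg adjustment over all genes of the class. Vehicle against WT gave 0 calls among 101 tests of the 8 genes in 18 classes (0 by DESeq2), where 1.83% of the tests of all genes were called. An unadjusted p under 0.05 was reached in 20 of the 101. The share of all genes at that cut was not summed over the classes, so this count is not read as a result about the 8 genes. In erythroid progenitors 0 of 8 were called (0 by DESeq2), where 0.605% of 11573 genes were called. In that class 5 of the 8 and 1689 of the 11573 genes had an unadjusted p under 0.05. There Alas2 differed by 1.15 ± 0.30 on the log2 scale (SE, edgeR adjusted p = 0.0189), higher in vehicle than in WT with no overlap, and Alad by 0.11 ± 0.029 (adjusted p = 0.0146). Without a filter on low counts 1 of the 8 was called. Of the globin chain genes, Hba-a1 and Hbb-bt were markers of the class and were not kept out of clustering. All 4 globin chain genes tested were called higher in vehicle than in WT in the same cells, from Hba-a2 at 0.93 ± 0.14 to Hbb-bt at 1.62 ± 0.19, as was Slc25a37, the mitochondrial iron importer mitoferrin, at 0.81 ± 0.10. These 5 calls were 3 by DESeq2 and 3 without vehicle replicate 1. Of the c-Kit+ cells, erythroid progenitors made up 21.1% and 21.4% with WT, against 10.7% and 10.4% with vehicle, while the IACS-70654 libraries gave 11.4% and 9.91%. Their 95% exact binomial intervals, which cover counting error only, ran from 19.8% to 22.9% in WT and from 9.04% to 12.2% in the tumor-bearing groups, and 2 libraries against 2 cannot go below an exact p of 0.333.

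With IACS-70654, Alas2, Uros, Cpox and Ppox were lower than with vehicle in erythroid progenitors. In erythroid progenitors 4 of 8 genes were called, all lower, where 6.88% of all 11573 genes were called and 4.95% were called lower (edgeR). An unadjusted p under 0.05 was reached by 6 of the 8 and by 3862 of the 11573 genes. The median log2 change of the 8 was -0.43, beside 0.0 over all genes tested. No IACS-70654 library overlapped with a vehicle library for any of the 8 genes but Alad. That held for Alas1 too, whose change did not pass. The share of all genes that separated in this way was not measured, and 2 libraries against 2 cannot go below an exact permutation p of 0.333. The separation is therefore not read as a result about these genes.

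Cpox had the firmest change. Its level was 207 and 210 CPM for WT, 227 and 220 for the vehicle libraries, and 156 and 150.4 under IACS-70654, a change of -0.55 ± 0.045 on the log2 scale against vehicle (SE, edgeR adjusted p = 1.01e-14). Both IACS-70654 libraries were also below both WT libraries (-0.45 ± 0.042). Cpox was called lower by edgeR in each of the 4 erythroid clusters taken alone, at -0.82 in cluster 11, -0.54 in cluster 16, -0.61 in cluster 14 and -0.57 in cluster 12.

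Uros, uroporphyrinogen III synthase, measured 16.6 and 19.7 CPM for WT, 24.2 and 21.7 for the vehicle libraries, and 14.1 and 15.1 under IACS-70654, a change of -0.70 ± 0.13 (edgeR adjusted p = 2.53e-05). Ppox, protoporphyrinogen oxidase, measured 12.9 and 13.2 CPM for WT, 15.9 and 14.5 for the vehicle libraries, and 8.56 and 10.1 under IACS-70654, a change of -0.77 ± 0.15 (edgeR adjusted p = 0.000109). For Alas2, at the levels given above, the change was -1.48 ± 0.34 (edgeR adjusted p = 0.000586), which rests on 59 UMIs in vehicle and 26 in IACS-70654. In neutrophil-committed progenitors, the measure of background, Alas2 was at 1.51 and 0.909 CPM in vehicle and 0.902 and 0.512 in IACS-70654, from 37 and 21 UMIs. In erythroid progenitors the IACS-70654 libraries were the lowest of the 6 for each of these genes, and against WT, where 7.31% of all genes were called, only Ppox was called among the members, at -0.53 ± 0.15, a call lost by DESeq2 and without either WT library or IACS-70654 replicate 1. Taken by cluster, 4 of 8 were called lower against WT in cluster 12 (Uros at -0.91, Ppox at -0.80, Urod at -0.53 and Cpox at -0.52, where 5.63% of genes were called), and Cpox was called in clusters 11 and 14 at -0.66 and -0.52, where 3.36% and 3.56% were.

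Urod differed by less. It measured 130 and 135 CPM for WT, 132 and 124 for the vehicle libraries, and 102 and 110 under IACS-70654, a change of -0.31 ± 0.056 (edgeR adjusted p = 1.89e-05) that was under the size required for a call. Fech differed by -0.21 ± 0.07 (adjusted p = 0.0226). Alad was at 589 and 589 CPM for WT, 653 and 622 for the vehicle libraries, and 683 and 647 under IACS-70654, and its difference from vehicle, 0.06 ± 0.029, did not pass (adjusted p = 0.163). Alas1 did not pass either, at -0.13 ± 0.11 (adjusted p = 0.468).

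Of the 4 calls in erythroid progenitors, the one for Cpox alone was made by DESeq2. Without vehicle replicate 1, the larger vehicle library, the call was again Cpox alone, with Alas2, Uros and Ppox at adjusted p of 0.0548, 0.0374 and 0.0478, and without IACS-70654 replicate 1 Alas2 and Ppox were lost, at 0.0255 and 0.0329.

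**Figure D3:**
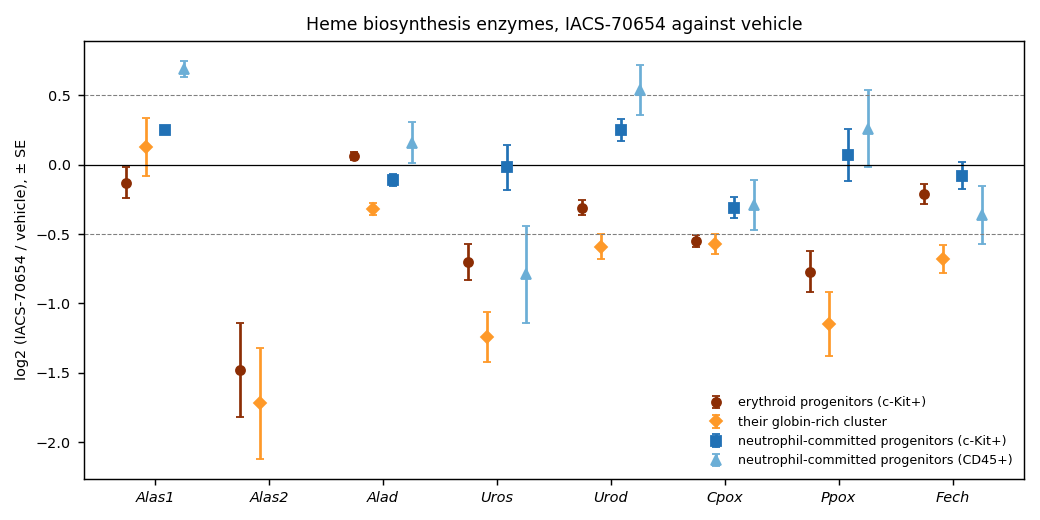
The y axis is the log2 change from vehicle to IACS-70654 (edgeR, error bars ± SE) for each heme enzyme gene on the x axis, in erythroid progenitors, their globin-rich cluster 12 and both neutrophil-committed classes; dashed lines mark a change of 0.5. Alas2, Uros, Cpox and Ppox are below the lower line in the erythroid class at -1.48 to -0.55, and Alas1 is above the upper line in CD45+ neutrophil-committed progenitors at 0.69.

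More of the genes were called in cluster 12, which was singled out after the values had been seen; whether the clusters differed in response was not tested. There 6 of 8 genes were called lower, where 5.68% of 9475 genes were called and 4.14% were called lower. Uros measured 33.0 and 43.3 CPM for WT, 48.6 and 42.7 for the vehicle libraries, and 18.6 and 23.4 under IACS-70654 (-1.24 ± 0.18). Fech, which was not called over the class, measured 103 and 104 CPM for WT, 132 and 121 for the vehicle libraries, and 80.7 and 81.7 under IACS-70654 (-0.68 ± 0.10). The other changes were -1.72 ± 0.40 for Alas2, -1.15 ± 0.23 for Ppox, -0.59 ± 0.089 for Urod and -0.57 ± 0.07 for Cpox. Alad differed by -0.32 ± 0.043, in the opposite direction to its difference over the class. In clusters 11, 16 and 14, where 2.87%, 3.45% and 2.81% of genes were called, only Cpox was called among the members, and Fech differed by 0.48 ± 0.19 in cluster 11 (adjusted p = 0.106). Without vehicle replicate 1, 3 of the 8 were called in cluster 12 (Uros, Cpox and Fech), and DESeq2 called 4 (Urod, Uros, Cpox and Fech).

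The mix of the erythroid class and the marker levels of cluster 12 differed between the treatment groups, as a description without a test. Cluster 12 made up 31.5% and 29.2% of erythroid progenitors in IACS-70654 and 28.9% and 24.7% in vehicle. Cluster 14 made up 29.1% and 25.2% in IACS-70654 and 21.2% and 16.3% in vehicle, cluster 16 made up 17.6% and 22.4% against 23.5% and 24.4%, and cluster 11 made up 21.8% and 23.1% against 26.5% and 34.6%, with no overlap between these groups for any of the 4 and no test. For cluster 12 the nearest libraries of the 2 groups were close, at 29.2% and 28.9%. The WT libraries were at 24.1% and 22.7% for cluster 12 and 22.5% and 22.7% for cluster 14. They were at 22.2% and 22.1% for cluster 16 and 31.1% and 32.4% for cluster 11. Within cluster 12 the summed level of the 12 erythroid markers was 5394 to 5488 CPM in WT, 6369 to 6630 in vehicle and 5969.9 to 6096 in IACS-70654. Hemgn was at 267 and 238 CPM in vehicle and 117 and 120 in IACS-70654, and Rhd at 388 and 374 against 221 and 225, whereas Car1, a carbonic anhydrase of earlier erythroid cells, was at 1799 and 2196 against 2671 and 2720. These markers were among the genes that defined the cluster, so they are given without a test, and their part in the enzyme differences was not tested. Neutrophil markers summed to 539 to 785 CPM in vehicle and 467 to 529 in IACS-70654 there.

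Other genes of the heme and iron pathway were read from the same fits. In erythroid progenitors with IACS-70654 against vehicle, where 6.88% of all genes were called, 0 of 14 tested genes of heme transport, cofactors and breakdown were called, 0 of 13 of iron uptake and iron-sulfur clusters, and 0 of 8 erythroid regulators such as Klf1, Gata1 and Epor. Klf1, Gata1 and Epor, like the globin genes Hba-a1 and Hbb-bt, were markers of the class and were not kept out of clustering. Their tests are limited by that. Of 6 heme protein genes, Cyba, a subunit of the phagocyte oxidase cytochrome, was called lower at -1.03 ± 0.071 (91.4 and 98.1 CPM in vehicle, 47.6 and 42.9 in IACS-70654). Epx, eosinophil peroxidase, was also called lower, at -1.65 ± 0.49, from 4.28 and 0.268 CPM in vehicle against 1.1 and 0.72 in IACS-70654, so that 1 vehicle library carried it. The globin genes did not move together. Hba-a1 was called lower at -0.92 ± 0.069 and Hba-a2 at -0.64 ± 0.14, and Hbb-bs was called higher at 0.58 ± 0.048, with 398 and 316 CPM in vehicle and 551 and 554 in IACS-70654. Of these lists 5 genes were called by edgeR in that comparison and 3 by DESeq2 or without vehicle replicate 1.

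In cluster 12 other genes of the pathway were called lower, and they were picked out after their values were seen. Tfrc, the transferrin receptor, differed by -0.74 ± 0.068, Slc25a37 by -0.71 ± 0.14, Slc25a38, the glycine carrier that feeds 5-aminolevulinate synthesis, by -0.59 ± 0.15, Blvrb, biliverdin reductase B, by -0.58 ± 0.039 and Steap3, an endosomal ferrireductase, by -0.53 ± 0.10, and all were called. They were 2 of 14 tested genes of the first list and 3 of 13 of the second, where 5.68% of all genes were called and 4.14% were called lower. Of the 4 globin genes tested, Hba-a1, Hba-a2 and Hbb-bt were called lower there as well, at -1.27, -0.91 and -1.12, and Hbb-bs was not called (1231 and 1132 CPM in vehicle, 1254 and 1297 in IACS-70654). None of the 8 regulators was called. Regulators and globin genes that were also class markers carry the limit given above.

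Alas1 was called higher with IACS-70654 in CD45+ neutrophil-committed progenitors, cycling neutrophil precursors and monocytes. In CD45+ neutrophil-committed progenitors it measured 594 and 619 CPM for WT, 517 and 516 for the vehicle libraries, and 918 and 881 under IACS-70654, above vehicle by 0.69 ± 0.06 on the log2 scale (SE, edgeR adjusted p = 4.94e-13) and called, where 7.06% of 9949 genes were called and 2.48% were called higher. Of the 7 members tested there it was the only one called. Split by cluster, it differed by 1.0 ± 0.086 in CD45+ cluster 13 (called, where 9.77% of genes were called) and by 0.50 ± 0.077 in CD45+ cluster 12 (not called, where 4.01% were), and the difference between these clusters was not tested. Markers of the class differed too, not all in the same direction. Elane was at 6663 and 6422 CPM in vehicle and 11017 and 10942 in IACS-70654, Ms4a3 at 1718 and 1678 against 2282 and 2181, and Gfi1, a granulocyte transcription factor, at 64.9 and 72.8 against 110 and 116. Mpo was at 4643 and 4814 against 5928 and 5940, and Ctsg at 3554 and 3661 against 4544 and 4642. Prtn3 differed little, at 11833 and 11718 against 12186 and 12511. Lower were Fcnb (ficolin B), at 1132 and 1101 against 258 and 254, and Cebpe, at 463 and 455 against 409 and 425. These genes named the class, so they are given without a test, and their part in the Alas1 difference was not tested. Urod differed by 0.54 ± 0.18 (at most 15.8 CPM in vehicle, 22.7 and 22.5 in IACS-70654, adjusted p = 0.0259), and with library totals in place of TMM scaling it was called too, at 0.65. In cycling neutrophil precursors Alas1 measured 168 and 157 CPM for WT, 185 and 174 for the vehicle libraries, and 317 and 332 under IACS-70654 (0.64 ± 0.058, adjusted p = 9.93e-16, called, where 7.41% of genes were called). In CD45+ monocytes it was at 59.4 and 60.6 CPM in vehicle and 91.3 and 89.4 in IACS-70654 (0.60 ± 0.084, adjusted p = 4.1e-06, called, with 5.96% of genes called). CD45+ basophil or mast cell–like cells went the other way without passing, at -1.36 with library totals (edgeR adjusted p = 0.456).

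Further along the neutrophil series, the Alas1 difference was smaller. Immature neutrophils gave 75.2 and 73.2 CPM in vehicle and 109 and 110 in IACS-70654 (0.31 ± 0.05, adjusted p = 3.71e-07, not called). Mature neutrophils gave 50.6 and 44.9 against 54.9 and 50.7 (-0.16 ± 0.081, adjusted p = 0.0997, where 20.4% of genes were called), and there the direction depended on the scaling: with library totals in place of TMM it was 0.15. With library totals the median log2 change of all genes was 0.11 in CD45+ neutrophil-committed progenitors, 0.22 in cycling precursors, 0.26 in immature and 0.31 in mature neutrophils, beside 0.01, 0.0, 0.01 and 0.0 with TMM, and Alas1 then stood at 0.80, 0.86, 0.56 and 0.15, so that it was called in immature neutrophils too. In the immature class most vehicle cells lay in clusters 3 and 4 and most IACS-70654 cells in clusters 6 and 10, and in the mature class in clusters 0 and 2 against cluster 1.

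In the c-Kit+ sort the Alas1 difference was under the size of a call. Neutrophil-committed progenitors differed by 0.25 ± 0.02 (edgeR adjusted p = 2.67e-16) from the libraries given above, and monocyte progenitors by 0.26 ± 0.042 (217 and 221 CPM in vehicle, 274 and 265 in IACS-70654, adjusted p = 2.55e-08). Here 0 of 7 members tested in neutrophil-committed progenitors were called (0 by DESeq2), where 6.9% of 12400 genes were called. An unadjusted p under 0.05 was reached by 4 of the 7 and by 4992 of the 12400 genes. Split by cluster, with no test between clusters, Alas1 differed in cluster 6, with histone genes among its leading genes, from 513 and 489 CPM to 849 and 816 (0.71 ± 0.048, called, where 3.55% of genes were called), against 0.31 ± 0.033 in cluster 2 and 0.16 ± 0.045 in cluster 3. Cpox differed by -0.31 ± 0.075 and Urod by 0.25 ± 0.076 in this class. In the other lists, Abcb10, a mitochondrial transporter of the heme pathway, was called lower at -0.71 ± 0.083, Cycs (cytochrome c) at -0.64 ± 0.026 and Steap3 at -0.58 ± 0.12, and Flvcr1, the heme exporter, was called higher at 0.53 ± 0.12. In the CD45+ class Abcb10 was called lower at -0.60 ± 0.13 and Cybb, the phagocyte oxidase, at -0.82 ± 0.06, and Blvrb was called higher at 1.02 ± 0.20. In vehicle against WT, where 1.75% of genes were called, c-Kit+ neutrophil-committed progenitors had Zfpm1, a GATA1 cofactor, called lower at -0.81 ± 0.18 and Cybb called higher at 0.68 ± 0.14.

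**Figure D4:**
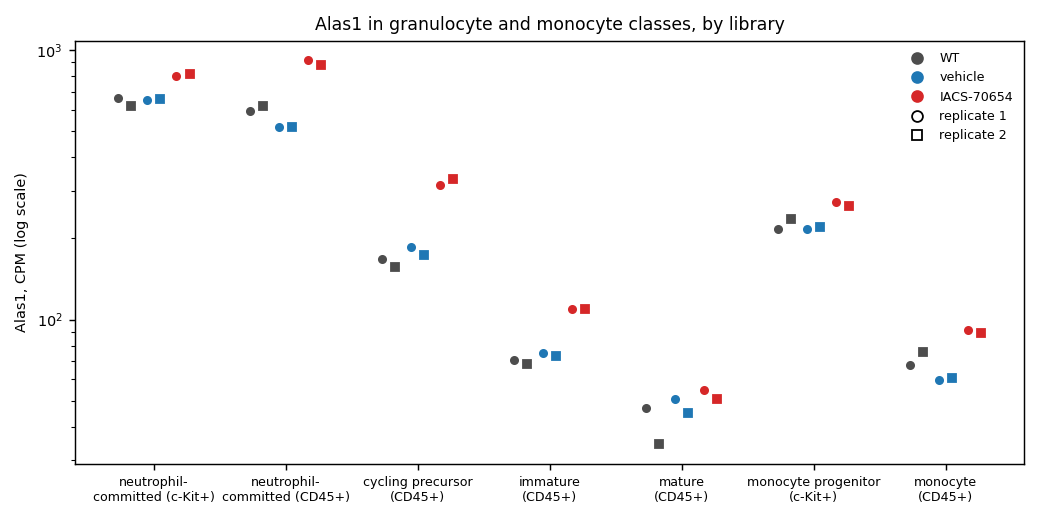
Alas1 in CPM (log y axis) in 7 granulocyte and monocyte classes of both sorts (x axis), with 1 point per library, colored by group and shaped by replicate. IACS-70654 points lie above vehicle in all 7 classes on this scale, from 918 and 881 against 517 and 516 CPM in CD45+ neutrophil-committed progenitors to 54.9 and 50.7 against 50.6 and 44.9 in mature neutrophils, where the fitted direction depended on scaling.

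Whether the 2 lines responded differently was tested as an interaction of class and group, with the library as block. 6 of 8 genes passed an edgeR adjusted p of 0.05, where 15.5% of 12941 genes did. The response in erythroid minus that in c-Kit+ neutrophil-committed progenitors was -0.84 ± 0.25 for Ppox, -0.68 ± 0.21 for Uros, -0.57 ± 0.095 for Urod, -0.38 ± 0.11 for Alas1, -0.25 ± 0.091 for Cpox and 0.16 ± 0.057 for Alad. Those of Alas2, -0.64 ± 0.58, and Fech, -0.14 ± 0.12, did not pass. Without IACS-70654 replicate 1 the value was -0.46 for Ppox and 0.079 for Alad, and without vehicle replicate 1 it was 0.25 for Alad. The count was 3 without vehicle replicate 1, 3 without vehicle replicate 2 and 2 without IACS-70654 replicate 1.

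Beyond these lines, Fech was higher with IACS-70654 in megakaryocyte progenitors, at 17.7 and 13.7 CPM in vehicle and 32.9 and 34.2 in IACS-70654 (0.95 ± 0.22, edgeR adjusted p = 0.000331, called, with 8.2% of genes called). WT measured 18.1 and 20.1 CPM. The call was lost without vehicle replicate 1, where the change was 1.22 at an adjusted p of 0.0167. DESeq2 made no call for it there, its adjusted p being NA. In immature neutrophils Fech was also called higher, from 1.77 and 1.4 to 3.98 and 3.75 CPM (1.04 ± 0.29, adjusted p = 0.00253, with 14.8% of genes called), and it lost the call under DESeq2 (adjusted p = 0.135), without either IACS-70654 library or vehicle replicate 2 (0.0127 to 0.0766), with clusters at resolution 2 (0.0481) and without an upper limit of genes per cell (0.0649). Over all classes, 9 of 101 tests of the 8 genes were called with IACS-70654 against vehicle, 5 higher and 4 lower, where 6.85% of the tests of all genes were called. DESeq2 gave 4 calls. An unadjusted p under 0.05 was reached in 34 of the 101. The share of all genes at that cut was not summed over the classes, so this count is not read as a result about the 8 genes. Against WT, which shares the IACS-70654 libraries with that comparison, 6 of 101 were called, where 6.34% of the tests of all genes were. Both counts of members called are near the share over all genes.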

How the data were processed

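Single-cell RNA-seq (3′ v3.1 chemistry with CellPlex sample tags) was measured in 12 BM libraries. The deposited matrices hold UMI counts per gene and cell, made by the authors with Cell Ranger on mm10 per the submitters' processing notes. Tumor libraries were not used here. Library totals ran from 27427163 to 68415534 UMIs in 3231 to 8205 barcodes.

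Cells with 200 to 6000 genes and at most 10% mitochondrial UMIs were kept. Cells of each sort were clustered with scanpy 1.11.5 and leidenalg 0.10.2 (resolution 1), leaving out the 8 genes and the other pathway lists except markers, and classes were named from fixed markers. Scrublet called 101 CD45+ and 151 c-Kit+ cells, so few that it did not serve as a doublet filter. No cell was removed by it, and an alternative dropped the top 6% of scores in each library. UMIs were summed per library and class of at least 20 cells and tested with edgeR 4.0.16 (quasi-likelihood, TMM, all 3 groups in 1 fit) with Benjamini-Hochberg adjustment, and with DESeq2 1.42.0 as an alternative, in R 4.3.3. Classes were compared within libraries on log2(CPM + 1) by exact sign-flip permutation. For shares of cells with a UMI, cells were thinned to 1000 (CD45+) or 3000 (c-Kit+) UMIs, which left out 273 and 2105 shallower cells. Intervals cover counting error only.

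On simulated counts the test recovered 76% of 200 genes with a log2 change of 1 in erythroid progenitors (11398 genes) and 83.5% in neutrophil-committed progenitors (12199 genes). Every gene of a class was given the same dispersion there, 0.000235 and 0.000148. The recovery of genes with a larger spread or a smaller change was not simulated.

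All 8 genes are named in the comparisons described. Genes of the other lists are named where called in erythroid or neutrophil-committed progenitors, up to 10 per comparison, and for Alas1 and Alas2 the 5 genes nearest in profile. The members and lists were chosen with earlier results of these data known. Alternatives covered scaling, filters, clustering, doublets and leaving out each library.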

Additional observations from a re-analysis of the deposited data

Results flagged for a closer look

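For 6 genes the response to IACS-70654 differed between erythroid and neutrophil-committed progenitors of the c-Kit+ sort, by edgeR's test of the interaction with Benjamini-Hochberg adjustment. The erythroid response minus the neutrophil-committed response, on the log2 scale, was -0.84 for Ppox (adjusted p = 0.00794), -0.68 for Uros (0.0109) and -0.57 for Urod (2.35e-07). It was -0.38 for Alas1 (0.00789), -0.25 for Cpox (0.0443) and 0.16 for Alad (0.0336). Of these, Urod alone passed under every alternative run (another scaling, clusters at resolution 2 and each library left out). Cpox missed the threshold with RLE scaling (0.0631) and with any 1 library left out (0.0556 to 0.520). Ppox, Uros, Alas1 and Alad each missed it in 2 of the 4 fits that left out a vehicle or IACS-70654 library. Cpox was lower with IACS-70654 in both classes, and Urod was lower in the erythroid class and higher in the neutrophil-committed class.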

How the results depend on the processing

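Of the 4 genes called in erythroid progenitors with IACS-70654 against vehicle, 1 was called by DESeq2, 1 to 4 when each library was left out, and 1 within each of clusters 11, 16 and 14. In CD45+ neutrophil-committed progenitors, library totals in place of TMM scaling gave 2 calls. Vehicle against WT in erythroid progenitors gave 1 call without a filter on low counts. IACS-70654 against WT there gave 0 by DESeq2 and 0 to 1 with a library left out. Cluster 12 gave 3 to 6 calls with a library left out. The class difference passed for 0 genes with 5 libraries, where the smallest p is 0.0625, which says nothing about stability. The interaction count ran from 2 to 5 with a library left out. Without an upper limit of genes per cell, the erythroid share was 22.8% in WT replicate 1, 12.2% in vehicle replicate 1, and 12.6% and 10.9% in IACS-70654 replicates 1 and 2. Without thinning, the median share of cells with a UMI was 94.1% for Alas1 in neutrophil-committed and 2.54% for Alas2 in erythroid progenitors. The other lists in erythroid progenitors gave 3 calls by DESeq2 both with IACS-70654 against vehicle and with vehicle against WT, and 3 to 5 and 3 to 6 respectively with a library left out. Apart from losses that follow from fewer samples, the cause was not tested. Same-numbered libraries of a sort correlated at -0.051 to 0.031 in their deviations, so no shared deviation was seen. These deviations are partly counting noise, so the values cannot exclude a shared pool or batch. With the replicate block, the counts were 4 in erythroid progenitors, 6 in cluster 12, 1 in CD45+ and 0 in c-Kit+ neutrophil-committed progenitors, as without it. Among the single genes called over a whole class with IACS-70654 against vehicle, 15 alternatives took a gene below the threshold in the same direction (not counting Fech in megakaryocyte progenitors under DESeq2, where the adjusted p was NA), beside 48 for the class difference that 5 libraries cannot pass, and none reversed a called direction. Alas2 rests on few UMIs.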
